A study of Mus musculus with 74 samples.

Results

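The nuclear genes of the mitochondrial respiratory chain and ATP synthase were followed through 35 RNA-seq libraries of mouse embryonic stem (ES) cells. Members were chosen by symbol, as genes that start with Nduf, Uqcr, Sdh (Sdha to Sdhd), Cox4, Cox5, Cox6, Cox7, Cox8 or Atp5, carry no hyphen and have a mean of at least 10 normalised counts over the 35 libraries. Of the 37620 genes listed, 92 carried these prefixes and 88 were members. Atp5l-ps1 was left out for its hyphen, and Atp5l2, Cox6a2 and Cox8b for means of 5.32, 2.33 and 0 normalised counts. By their known roles, 40 members belonged to complex I (7 core subunits, 29 accessory subunits and 4 assembly factors), 4 to complex II, 8 to complex III, 17 to complex IV and 17 to complex V. The other 2 were Ndufa4l2, a paralog of the complex IV subunit Ndufa4, and Cox4nb, which lies next to Cox4i1 and codes for a subunit of an endoplasmic reticulum complex, so the label did not hold for Cox4nb. Atp5sl was counted with complex V by its symbol, although it is known as an assembly factor of complex I.

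The SunTag system is a CRISPR activator made only in doxycycline (Dox) and directed by guide RNAs to chosen promoters. Nanog SunTag cells carried a guide to the Nanog promoter, and Nanog/Otx2 SunTag cells carried guides to Nanog and Otx2. The Nanog lines C1 and C2 were made from a pair of parental SunTag clones. The Nanog/Otx2 cells were made by adding the Otx2 guide to the Nanog C1 and C2 cells, and their lines are labelled C1ON3 and C2ON3. Cells were grown for 3 days with or without the cytokine LIF (10 ng/mL) and with or without Dox (1 µg/mL). The Nanog cells had 3 libraries with LIF and no Dox (C1-1, C2-1 and C2-2, named by clone and number), 3 without LIF or Dox (C1-1, C1-2 and C2-1), 2 with LIF and Dox (C1-1 and C2-1) and 3 with Dox and no LIF. The last group held C2-2 and a pair that both bear the label C1-1, called C1-1a and C1-1b here. The Nanog/Otx2 cells had 3 libraries with LIF and no Dox (C1ON3-1, C1ON3-2 and C2ON3-1) and 4 (C1ON3-1, C1ON3-2, C2ON3-1 and C2ON3-2) in each of the other groups. 44iN cells, which lack endogenous Nanog and carry a Nanog transgene driven by Dox, had 2 libraries with Dox, 2 from 24 h without it and 2 from long-term culture without it, all in LIF. Tg2a cells, the wild type, were grown in serum with LIF and had 3 libraries. Nothing in the labels says that numbered libraries came from separate cultures, so p-values measure the spread between these libraries, which may be technical.

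The respiratory chain sits in the inner mitochondrial membrane. Complexes I and II pass electrons from NADH and succinate to coenzyme Q, complex III hands them to cytochrome c, complex IV passes them to oxygen, and complex V uses the proton gradient so built to make ATP. The catalytic centres of complexes III and IV and the membrane arm of complex I also hold proteins encoded in mitochondrial DNA, whereas the members described here are transcribed in the nucleus. ES cells in LIF use both respiration and glycolysis, and epiblast-like cells are known to rely more on glycolysis.

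Library totals ran from 6107512 to 92244655 estimated counts (median 29298745). The labelled states were checked in both SunTag lines without Dox. All 7 ES cell markers tested in the Nanog line (Pou5f1, Sox2, Zfp42, Klf4, Tfcp2l1, Tbx3 and Dppa5a) fell without LIF, as did 6 of 7 in the Nanog/Otx2 line, and all primed epiblast markers tested (Fgf5, Otx2, Pou3f1 and Dnmt3b) rose in both. Pou3f1 is listed under 2 identifiers, of which 1 was tested in the Nanog line and both in the Nanog/Otx2 line. Nanog, the targeted gene, had 29487, 23345 and 21940 normalised counts with LIF in the Nanog line and 7032, 8484 and 2234 without it. With Dox it had 93813 and 75226 with LIF, and 54732, 55641 and 45041 without LIF. In 44iN cells it had 13366 and 18394 with Dox, 705.5 and 739.5 at 24 h without, and 275.6 and 228.1 after long-term culture. A pair of features of the Nanog libraries touches the results below. In the table's headers all of those with LIF share 1 letter and all of those without LIF another, so that letter and LIF cannot be told apart in this line, and library C1-1 with LIF and no Dox lay below both others of its group for several members, Cox4i1 and Cox5b among them.

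Atp5b, the catalytic beta subunit of complex V, had the highest level per kilobase of transcript of all members in all 12 groups. In Nanog cells with LIF and no Dox it reached 33098 normalised counts per kilobase, against a median of 2453 over the 88 members, and without LIF 22542 against 1368. At the other end, Cox7b2, an isoform known from testis, was lowest in all 8 SunTag groups, at 40.8 normalised counts per kilobase with LIF and 15.2 without in the uninduced Nanog line. The members took between 1.213% and 1.451% of the counts of nuclear genes in the Nanog libraries with LIF and no Dox, and between 0.7879% and 0.9166% in those without either. The ranges in the Nanog/Otx2 line were 1.409% to 1.512% and 1.14% to 1.244%. With Dox they were 1.392% to 1.634% with LIF and 0.8584% to 0.9184% without in the Nanog line, and 1.403% to 1.508% and 1.183% to 1.277% in the Nanog/Otx2 line. In every one of these pairs the libraries without LIF lay below all of those with LIF. In bulk libraries, fewer cells of a type and less RNA per cell cannot be told apart.

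**Figure D1:**
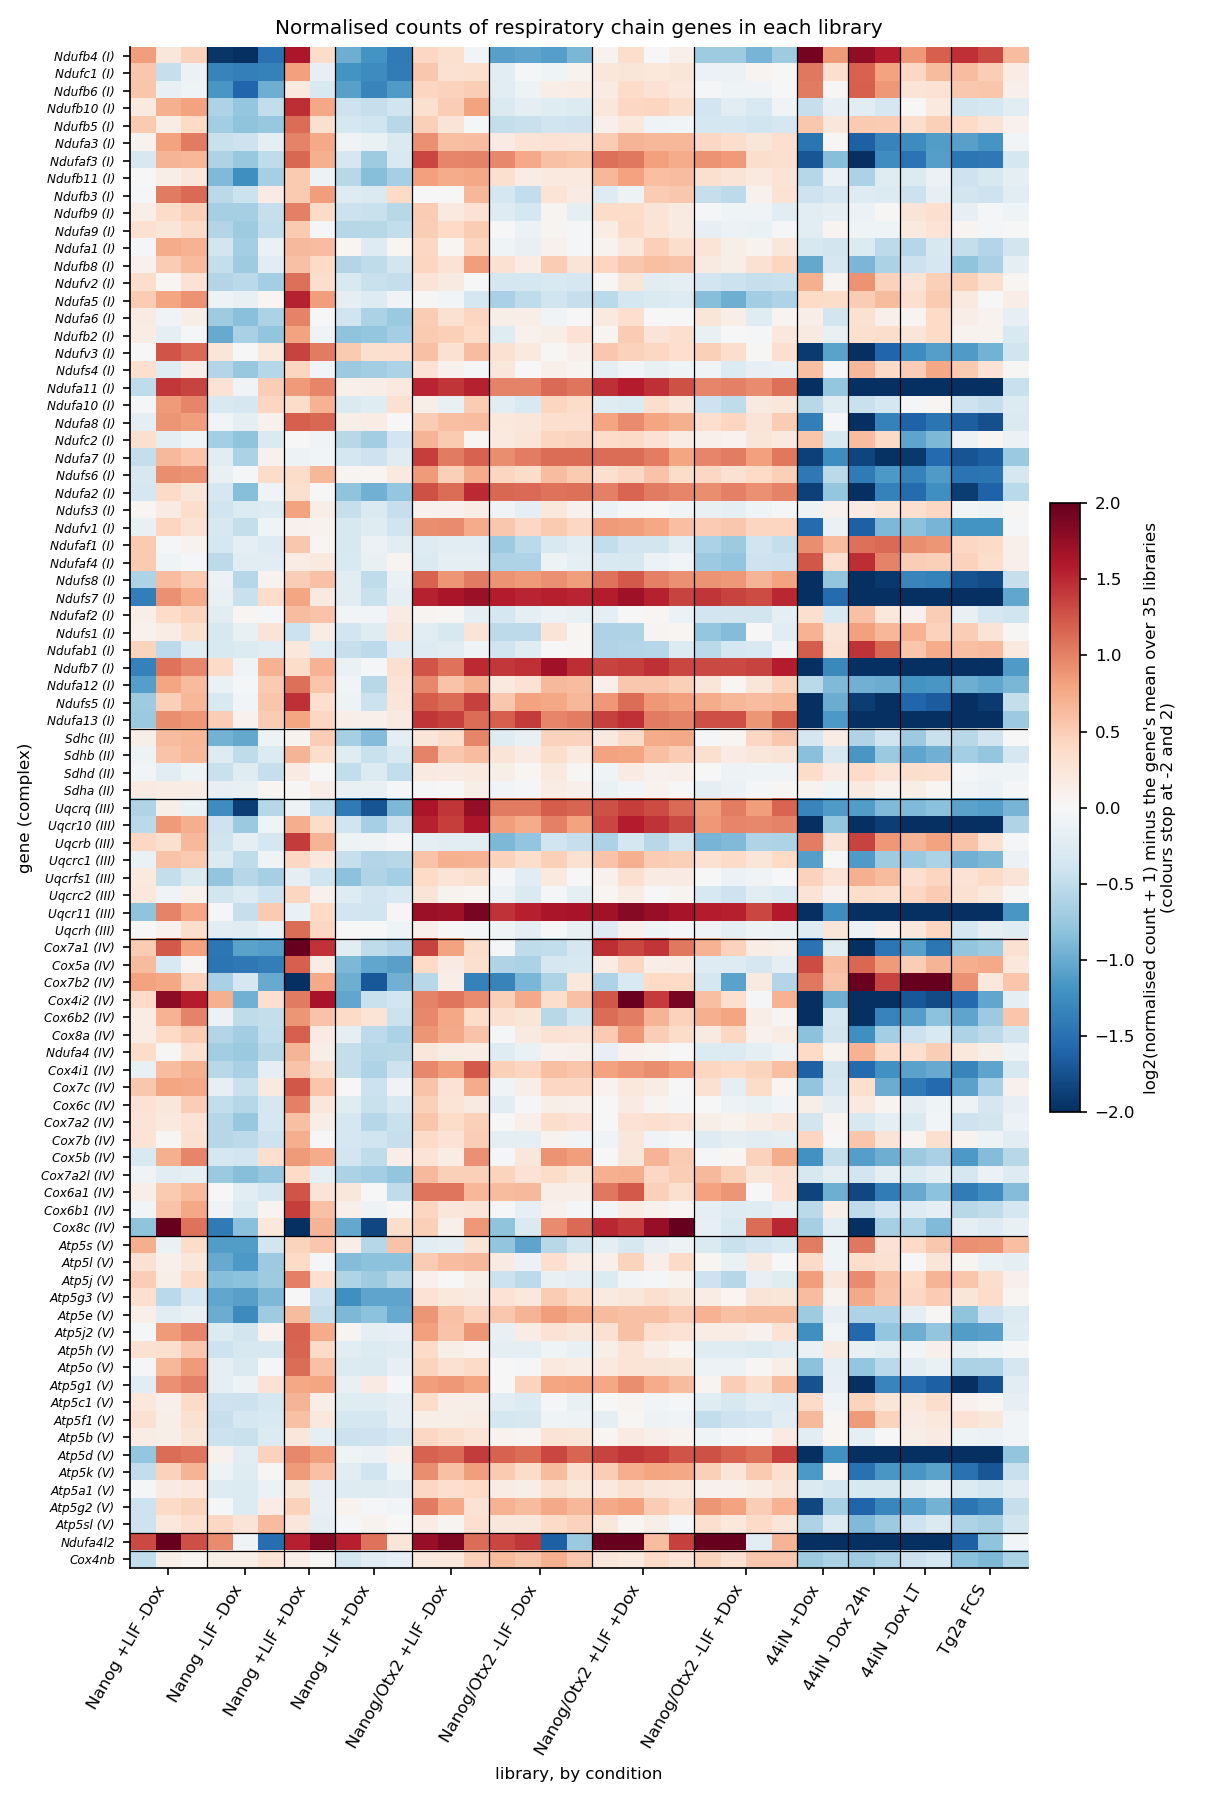
Levels of 87 of the 88 members in the 35 libraries. Rows are genes grouped by complex and columns are libraries grouped by condition. Colour gives log2(normalised count + 1) minus the gene's mean over all 35 libraries, with the colours ending at 2 units either way. The SunTag libraries without LIF are paler or bluer than their neighbours with LIF over most rows.

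The first question was how the members responded to LIF withdrawal in Nanog SunTag cells without Dox. Of the 87 members tested, 55 fell, 0 rose, and 85 had a negative log2 fold change. Genes were tested where all libraries of some group reached 10 normalised counts, and were called at a Benjamini-Hochberg adjusted p-value under 0.05 from edgeR's quasi-likelihood test. Among all 15624 genes tested 21.3% were called lower. The median log2 fold change was −0.73 over the members and −0.05 over all genes tested. The groups with and without LIF did not overlap for 55 members, all lower without LIF, against 26% of all genes. By clone, with no test, 69 of 87 members were lower without LIF in C1 and 83 of 87 in C2.

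Ndufb4 (ENSMUSG00000022820, chr16:37647256-37654539 of mm9, minus strand) codes for an accessory subunit of the membrane arm of complex I. It had 688.2, 450.9 and 528.1 normalised counts with LIF and 99.34, 93.07 and 136.4 without. The lowest library with LIF was above the highest without by a wide gap, and the log2 fold change of −2.36 (SE 0.32, adjusted p = 0.0002, edgeR) left 0.195 of the level with LIF. The value of Ndufb4 is uncertain, because its coding sequence of 390 bases is 100% identical to chr15:73639937-73640326, annotated as Gm3244, and to chr19:25107632-25108021, inside Dock8. Gm3244 had 755.1, 1966 and 2350 normalised counts with LIF and 456.8, 369.7 and 586.4 without, so that more estimated reads were given to the copy than to the gene itself in each of these libraries. With the counts of the copies added, the log2 fold change of Ndufb4 was −1.92. In all, 15 of the 88 members had a copy elsewhere in the genome of at least 97% identity over at least 50% of the coding sequence, and of the 72 members tested without one, 47 fell.

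Cox5a (ENSMUSG00000000088, chr9:57369039-57380231, plus strand), a nuclear subunit of complex IV, fell from 8071, 4209 and 5308 normalised counts to 1891, 1934 and 2004. Its 3 libraries without LIF agreed closely and lay below all of those with LIF (log2 fold change −1.62, SE 0.27, adjusted p = 0.00082). Ndufb10, Ndufb6 and Ndufc1, further accessory subunits of complex I, behaved alike. Ndufb10 went from 1775, 2548 and 2718 to 1019, 911.3 and 1101 normalised counts (log2 fold change −1.23, SE 0.20). Ndufb6 had 2011, 1242 and 1296 with LIF and 613.9, 455 and 700.7 without. Ndufc1 had 1288, 643.7 and 812.7 with LIF and 348.5, 341.3 and 345.4 without. None of these genes had overlapping groups, and the C1 library with LIF was the highest of its group for Cox5a, Ndufb6 and Ndufc1 but the lowest for Ndufb10.

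Promoters are given for Ndufb4 and Cox5a, which had large falls in both lines, and for Atp5g3 and Atp5l, which differed between the lines (below). The long and short motifs of the ERR nuclear receptors (TCAAGGTCA and AAGGTCA), the NRF1 motif (CGCATGCG), an ETS motif (CCGGAAG) and a YY1 motif (AAGATGGC) are known from respiratory chain genes. Motifs were searched on both strands over the 250 bases upstream of the start site, and the short ERR motif is contained in the long one. Sequences are from RefSeq on GRCm38.p6, in which 73 of the 88 members were matched, 3 of them by a synonym. Capitals mark a motif of either strand as it reads on the printed one. Ndufb4 lies at chr16:37654369-37654618 (minus strand) and holds a short ERR motif. Atp5g3 lies at chr2:73911327-73911576 (minus strand) and holds the long ERR motif on the other strand. Atp5l lies at chr9:44920743-44920992 (minus strand) and holds NRF1, ETS and short ERR motifs. Cox5a lies at chr9:57520982-57521231 (plus strand) and holds none of them.
Ndufb4: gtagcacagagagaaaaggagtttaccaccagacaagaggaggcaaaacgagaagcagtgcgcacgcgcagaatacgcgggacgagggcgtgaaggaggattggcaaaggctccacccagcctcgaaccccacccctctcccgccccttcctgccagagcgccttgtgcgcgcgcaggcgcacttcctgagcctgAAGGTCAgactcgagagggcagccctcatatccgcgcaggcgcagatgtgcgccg
Atp5g3: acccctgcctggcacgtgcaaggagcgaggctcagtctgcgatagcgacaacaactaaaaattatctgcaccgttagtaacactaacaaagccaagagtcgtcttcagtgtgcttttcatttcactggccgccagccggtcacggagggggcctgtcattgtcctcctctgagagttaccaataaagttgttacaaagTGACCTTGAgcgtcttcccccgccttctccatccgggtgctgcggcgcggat
Atp5l: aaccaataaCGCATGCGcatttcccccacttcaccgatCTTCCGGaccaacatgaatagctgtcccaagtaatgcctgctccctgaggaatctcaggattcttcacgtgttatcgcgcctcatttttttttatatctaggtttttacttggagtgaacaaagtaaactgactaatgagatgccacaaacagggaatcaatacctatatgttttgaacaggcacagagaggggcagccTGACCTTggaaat
Cox5a: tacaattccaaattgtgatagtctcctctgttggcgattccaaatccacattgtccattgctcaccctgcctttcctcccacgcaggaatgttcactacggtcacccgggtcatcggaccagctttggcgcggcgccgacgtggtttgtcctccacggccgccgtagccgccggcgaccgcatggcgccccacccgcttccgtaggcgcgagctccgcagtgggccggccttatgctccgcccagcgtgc

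Over the 73 matched promoters, 8 (11%) held the NRF1 motif, against 1.75% of the promoters of 27025 genes. The ETS motif was in 13 (17.8%) against 7.83%. The ERR motifs were in 5 (6.85%, short) against 4.7% and in 1 (1.37%, long) against 0.422%, and the YY1 motif was in 2 (2.74%) against 1.83%. These are matches of letters in these windows and no record of binding.

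Complex I had 40 members tested, of which 24 fell (3 of 7 core subunits, 19 of 29 accessory subunits and 2 of 4 assembly factors). Among the core subunits, which carry the flavin and iron-sulphur clusters, Ndufv2 went from 4333, 3458 and 4141 normalised counts to 2243, 2320 and 2106. That was a log2 fold change of −0.86 (SE 0.18, adjusted p = 0.0033), the largest fall of the core. Ndufv1, the flavin subunit, had 1799, 2680 and 2417 with LIF and 1595, 1428 and 1870 without, groups that overlap. Ndufs3 had 1569, 1708 and 1936 with LIF and 1149, 1260 and 1266 without, and both Ndufv1 (log2 fold change −0.51) and Ndufs3 (−0.52) passed the test. Ndufs1, Ndufs7 and Ndufs8 did not, with log2 fold changes between −0.26 and −0.46. The median over the accessory subunits was −0.81 and over the core −0.51.

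In complex II, which is also an enzyme of the citrate cycle, Sdhb and Sdhc fell and Sdha and Sdhd did not pass the test. Sdhb (ENSMUSG00000009863, chr4:140517118-140535108, plus strand), the iron-sulphur subunit, had 1856, 2969 and 3111 normalised counts with LIF and 1663, 1393 and 1650 without (log2 fold change −0.77, SE 0.19, adjusted p = 0.0074). Sdhc, a membrane anchor, had 2801, 3939 and 4109 with LIF and 1344, 1273 and 2391 without, a log2 fold change of −1.13. For both genes the groups did not overlap, and library C1-1 was the lowest with LIF. Sdha, the flavin subunit, had 7840, 7687 and 7743 with LIF and 6209, 6265 and 7137 without, so that its groups did not overlap either, but its log2 fold change was only −0.27 (SE 0.12, adjusted p = 0.098).

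In complex III 6 of 8 members fell, with a median of −0.59. Uqcrc1 and Uqcrc2 are the large core proteins and Uqcrfs1 is the Rieske iron-sulphur protein. Uqcrc1 had 3703, 6053 and 5838 normalised counts with LIF and 3356, 2852 and 3833 without, and the groups overlapped through library C1-1 with LIF. Uqcrc2 had 6651, 5449 and 6100 against 4429, 4735 and 4321, and Uqcrfs1 had 2646, 1659 and 1900 against 1345, 1560 and 1465, both without overlap. The log2 fold changes were −0.65, −0.45 and −0.53 and all 3 genes passed the test.

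In complex IV 11 of 16 members tested fell, with a median of −0.87 (8 of 11 nuclear subunits and 2 of 4 tissue isoforms). Cox4i1 (ENSMUSG00000031818, chr8:123192190-123198109, plus strand), the ubiquitous form of subunit IV, had 5612, 9531 and 10242 normalised counts with LIF and 4223, 3974 and 5433 without. Its C1 library with LIF was only just above the highest library without, and the log2 fold change was −0.91 (SE 0.21, adjusted p = 0.005). Cox5b showed the same spread more strongly, with 2769, 5562 and 6712 with LIF and 2680, 2607 and 4289 without, and was not called (log2 fold change −0.66, SE 0.30, adjusted p = 0.096). Cox7a2 fell from 4092, 3891 and 4162 to 2308, 2027 and 2676, and Cox8a from 3154, 3763 and 4074 to 1901, 1761 and 2044. Both had tight groups, with log2 fold changes of −0.81 and −0.96.

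The isoforms of complex IV known from muscle, testis and lung were low but measured. Cox7a1 (ENSMUSG00000074218, chr7:30969190-30971047, plus strand), the heart and muscle form of subunit VIIa, had 128.5, 212.9 and 158.6 normalised counts with LIF and 32.57, 42.66 and 41.8 without. That was a log2 fold change of −2.12 (SE 0.30, adjusted p = 0.00022), where Cox7a2, the common form, fell by 0.81 on the same scale. Cox6b2, known from testis, had 241, 355.4 and 434.5 with LIF and 200.3, 153.8 and 156.1 without (log2 fold change −1.03), whereas Cox6b1 had 3768, 5791 and 6704 against 3739, 3234 and 4079 and was not called (−0.57). Cox4i2, the form known from lung and hypoxia, had 37.49, 100.6 and 86.14 with LIF and 47.23, 14.22 and 35.65 without, which overlapped (adjusted p = 0.059). Ndufa4l2, the hypoxia-induced paralog of Ndufa4, had 297.2, 596.7 and 292.1 with LIF and 230.4, 111.2 and 40.57 without (log2 fold change −1.63, SE 0.53, adjusted p = 0.029). Differences in response between an isoform and its counterpart were not tested.

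In complex V 11 of 17 members fell, 3 of 5 subunits of the F1 head and 7 of 10 of the membrane part and stalks among them, with a median of −0.66. Atp5b (ENSMUSG00000025393, chr10:127520329-127527447, plus strand) had 62474, 61058 and 66715 normalised counts with LIF and 41619, 41243 and 46710 without. The groups were tight and apart, and the log2 fold change of −0.57 (SE 0.13, adjusted p = 0.0051) corresponds to a ratio of 0.672. Its partner in the F1 head, Atp5a1, had 30459, 35320 and 36418 with LIF and 26183, 25884 and 28961 without and was not called (−0.35, adjusted p = 0.054). Atp5c1, the central stalk subunit gamma, had 11549, 10676 and 13100 against 7470, 7404 and 7810 (−0.66). Atp5l, subunit g of the membrane part, fell further than these, from 6277, 5448 and 5949 to 2518, 2288 and 3058 (log2 fold change −1.19, SE 0.16, adjusted p = 0.00016). The only members with a positive log2 fold change were Cox4nb (0.24) and Atp5sl (0.34), neither of which passed the test, and neither of which is a subunit of the chain or of ATP synthase.

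**Figure D2:**
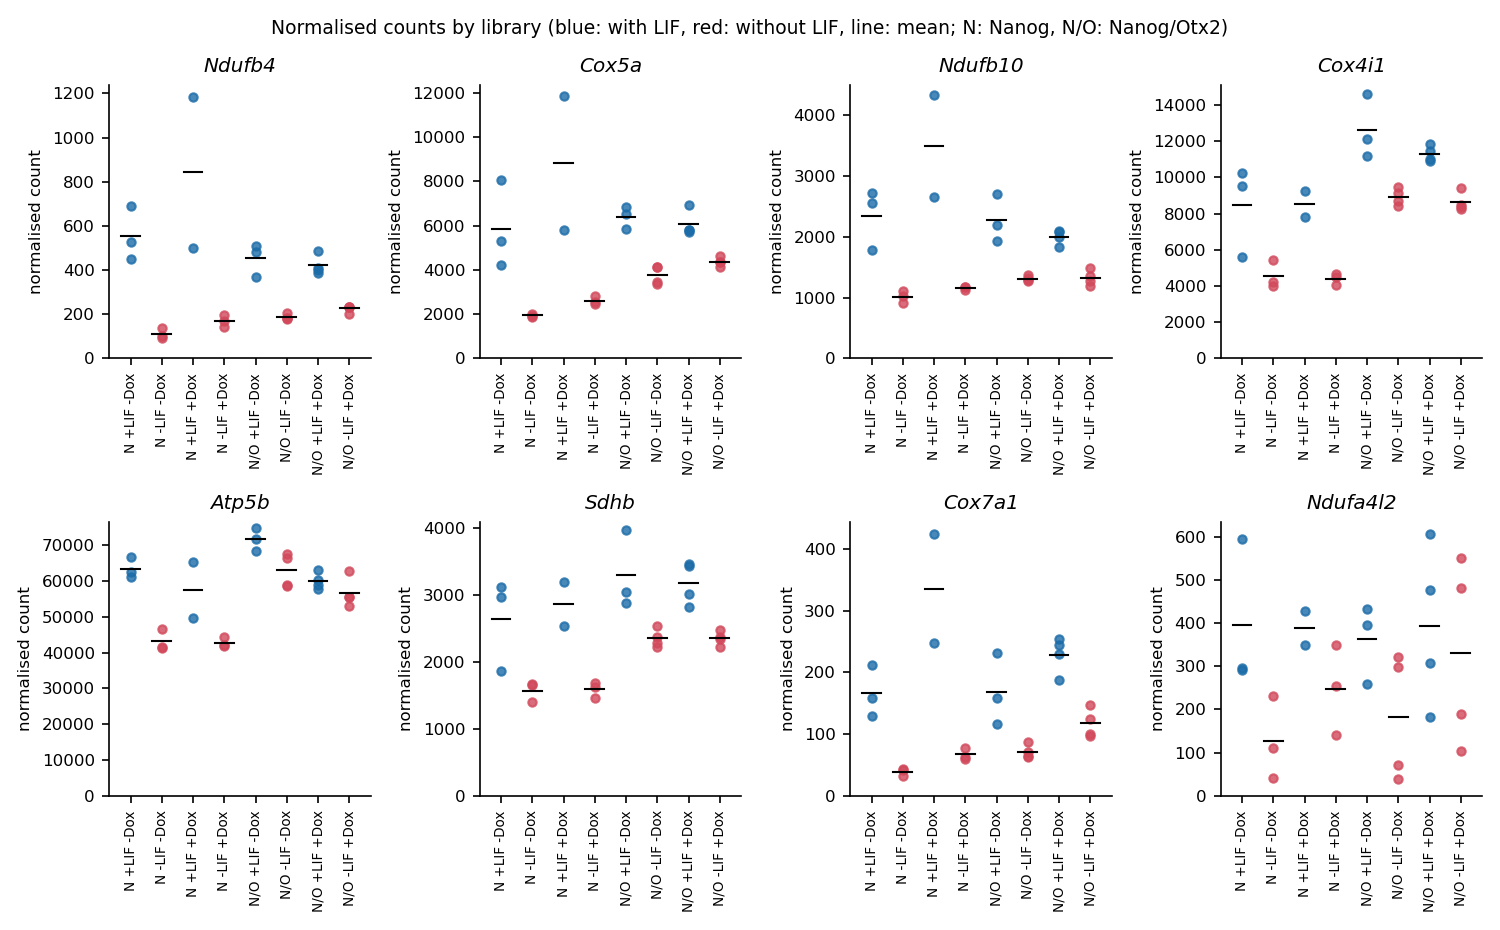
Normalised counts of 8 members in the SunTag libraries. Each point is 1 library, each panel 1 gene and each column 1 group, blue with LIF and red without, and the line is the group mean. The 3 blue points of Atp5b in the Nanog line without Dox lie between 61058 and 66715 and the 3 red points between 41243 and 46710, whereas the points of Ndufa4l2 in the Nanog/Otx2 line overlap.

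The same comparison in the Nanog/Otx2 cells, also without Dox, gave smaller falls with tighter replicates. Of 87 members tested 51 fell and 1 rose, and 80 had a negative log2 fold change, against 25.2% of the 15609 genes tested that fell and 24.6% that rose. The median was −0.35. Values did not overlap for 49 members that were lower without LIF and for 1 that was higher, against 23.1% of all genes. By complex, 22 of 40 members of complex I fell, 1 of 4 of complex II, 7 of 8 of complex III, 10 of 16 of complex IV and 11 of 17 of complex V. In the headers of this line the libraries with and without LIF are interleaved.

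Ndufb4 again fell furthest, from 510.3, 480 and 370.3 normalised counts to 181.2, 184.9, 178.2 and 203.7 (log2 fold change −1.33, SE 0.12, adjusted p = 6.6e-07). With its copies added the value was −1.28. Cox5a had 6860, 5826 and 6509 with LIF and 3429, 3373, 4146 and 4152 without (−0.79, SE 0.09, adjusted p = 6.7e-06), and Ndufb10 had 1935, 2192 and 2703 against 1274, 1376, 1314 and 1283 (−0.82). No library without LIF reached the lowest library with LIF for any of these genes. Cox7a1 had 231.4, 158.1 and 115.7 with LIF and 87.6, 63.4, 64.12 and 71.23 without, a log2 fold change of −1.30 (SE 0.22). Cox6b2 fell by 0.83 on the log2 scale, from 424.5, 375.2 and 282.4 to 268.5, 258.9, 147.4 and 168.1, with its C2ON3 libraries below its C1ON3 libraries in both groups.

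Of the core subunits, Ndufv1 and Ndufv2 fell in complex I. Ndufv1 had 3801, 3830 and 3328 normalised counts with LIF and 2877, 2651, 2856 and 2658 without, a log2 fold change of −0.44. Ndufv2 had 4024, 3834 and 3361 against 2639, 2659, 2735 and 2677, a log2 fold change of −0.52. Both genes had groups apart, and Ndufs3, called in the Nanog line, had −0.13 here (adjusted p = 0.23). Sdhb had 3963, 2881 and 3041 with LIF and 2367, 2226, 2538 and 2284 without (−0.52, SE 0.10), and Sdha had 6891, 6971 and 7559 against 6685, 6769, 7762 and 7509, with overlapping groups (−0.02, adjusted p = 0.83). Uqcrc1, Uqcrc2 and Uqcrfs1 fell by 0.29, 0.32 and 0.37. Cox4i1 had 12143, 11150 and 14596 with LIF and 8665, 8409, 9486 and 9156 without (−0.53, SE 0.08, adjusted p = 0.00011). Atp5b had 74946, 71818 and 68318 against 59014, 58728, 67742 and 66581, a change of −0.22 (SE 0.08, adjusted p = 0.03) in which the C2ON3 libraries without LIF came close to the C2ON3 library with LIF. Cox4nb was the 1 member that rose, from 2631, 2647 and 3199 to 3551, 3348, 3735 and 3307 (0.27, SE 0.09, adjusted p = 0.016).

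**Figure D3:**
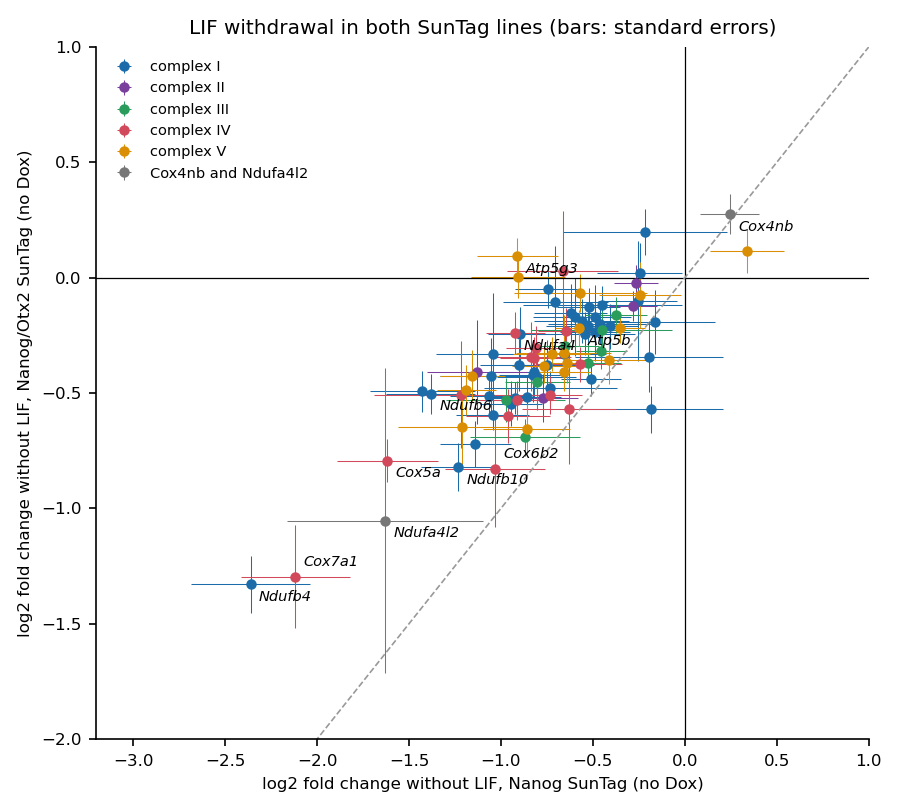
Log2 fold change without against with LIF, in the absence of Dox, for the members tested in both lines. The horizontal axis is the Nanog line and the vertical axis the Nanog/Otx2 line, with bars of 1 standard error, the dashed line marks equal change, and colours give the complex. Most points lie above the dashed line and below 0, with Ndufb4 at −2.36 and −1.33 at the lower left.

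Of the 86 members tested in both lines, 43 fell in both, 12 in the Nanog line only, 8 in the Nanog/Otx2 line only, and 23 in neither. Over all genes tested in both, 2412 of 15023 fell in both. The log2 fold change was lower in the Nanog line for 82 of the 86. The change in the Nanog/Otx2 line minus that in the Nanog line had a median of 0.38 over the members. It was 0.37 over the 832 tested genes no longer than the median member, members included. The difference itself was tested in a model of all 26 SunTag libraries. In it 5 of 88 members differed, all with a less negative or a positive change in the Nanog/Otx2 line, where 0.697% of the 16210 genes tested differed in that direction. They were Atp5g3 (difference 1.00, SE 0.21, adjusted p = 0.0129), Ndufb6 (0.87), Atp5l (0.70), Ndufs4 (0.69) and Ndufa4 (0.68). With the clone as a replicate block, 13 members differed, where 2.1% of genes differed in that direction.

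Atp5g3 (ENSMUSG00000018770, chr2:73746504-73749383, minus strand), which codes for subunit c of the proton-carrying ring, had 8269, 4496 and 5156 normalised counts with LIF and 3154, 3064 and 3478 without in the Nanog line. In the Nanog/Otx2 line it had 7952, 7502 and 7402 with LIF and 7934, 7569, 9316 and 8482 without. The groups were apart in the first line and overlapped in the second (0.09, SE 0.08, adjusted p = 0.35). Ndufs4, an accessory subunit of complex I, had 2600, 1740 and 2265 against 1379, 1225 and 1393 in the Nanog line and 2512, 2193 and 2014 against 2427, 2080, 2213 and 2154 in the Nanog/Otx2 line. Ndufa4 had 7115, 5625 and 6788 against 3395, 3307 and 3759, and 6418, 6118 and 6078 against 4658, 5047, 5871 and 5936, so that it was lower without LIF in both lines. Leaving out 1 library ended the call in at least 1 case for Ndufb6, Atp5l, Ndufs4 and Ndufa4, and for Atp5g3 in none. Without Nanog library C1-1 with LIF and no Dox 23 members differed, and without C1-1 or C1-2 of the Nanog group without LIF or Dox 1 did. The shares of all genes that differed in these fits are not given, so these counts cannot be set against all genes. When the trends of each library with GC content and transcript length were removed, 0 members were called, and Atp5g3 had a difference of 0.72 (adjusted p = 0.122).

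With Dox, when Nanog was induced, LIF withdrawal lowered 53 of 87 members in the Nanog line and raised 0, where 15.5% of all genes fell, and the median was −0.86. Ndufb4 had 1186 and 498.7 normalised counts with LIF and 194.7, 168 and 143.7 without (log2 fold change −2.28, SE 0.34). Cox5a had 11880 and 5800 against 2806, 2528 and 2451 (−1.74), and Cox7a1 had 425.2 and 247.6 against 78.13, 63.44 and 59.64 (−2.29, SE 0.30). For Ndufb4, Cox5a and Cox7a1 the groups were apart and C1-1 was the higher of the libraries with LIF and Dox. Without that library the group held no replicate, so its weight on the count cannot be told apart from the smaller group. All 11 nuclear subunits of complex IV fell in this comparison, Cox5b included (adjusted p = 0.038), along with 21 members of complex I, 2 of complex II, 6 of complex III and 10 of complex V.

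In the Nanog/Otx2 line with Dox 38 of 87 members fell and 0 rose, against 17.9% of all genes that fell, with a median of −0.26. With the clone and its number as a replicate block 58 were called (3 higher, 55 lower), against 25.7% and 26.2% of genes. Ndufb4 had 402.1, 488.4, 385.6 and 410.6 normalised counts with LIF and 234.8, 233.5, 201.7 and 233.4 without (log2 fold change −0.91, SE 0.12, adjusted p = 2.9e-05). Cox5a had 5781, 6935, 5707 and 5780 against 4375, 4373, 4137 and 4622 (−0.48). Cox4i2 had 68.93, 114.6, 76.75 and 108.4 against 43.79, 36.19, 27.91 and 46.69, the largest fall among the members called here (−1.25, SE 0.21, adjusted p = 0.00036). Each of these genes was lower in all 4 libraries without LIF than in any with LIF. By complex, 18 members of complex I fell, 1 of complex II, 6 of complex III, 7 of complex IV and 6 of complex V.

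The members are short transcripts, and short genes as a class moved with LIF in these libraries. The longest coding transcript of a member ran from 364 to 4933 bases, with a median of 931.5. In the uninduced Nanog line 758 tested genes, members included, were no longer than that median. Their median log2 fold change was −0.60, and 40.0% of them were called lower. The 784 such genes of the Nanog/Otx2 line had a median of −0.21, and 32.0% were called lower. With Dox the medians were −0.74 (41.6% lower) and −0.12 (21.3% lower). The median of all members, long ones included, was therefore lower than that of short genes. The gap was 0.13 and 0.12 in the Nanog line without and with Dox, and 0.14 and 0.14 in the Nanog/Otx2 line. Between 300 and 600 bases the members had a median of −0.84 and other genes −0.66 in the Nanog line, and between 2400 and 3600 bases −0.31 and −0.04. The same classes in the Nanog/Otx2 line had −0.38 and −0.15, and −0.16 and −0.01.

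**Figure D4:**
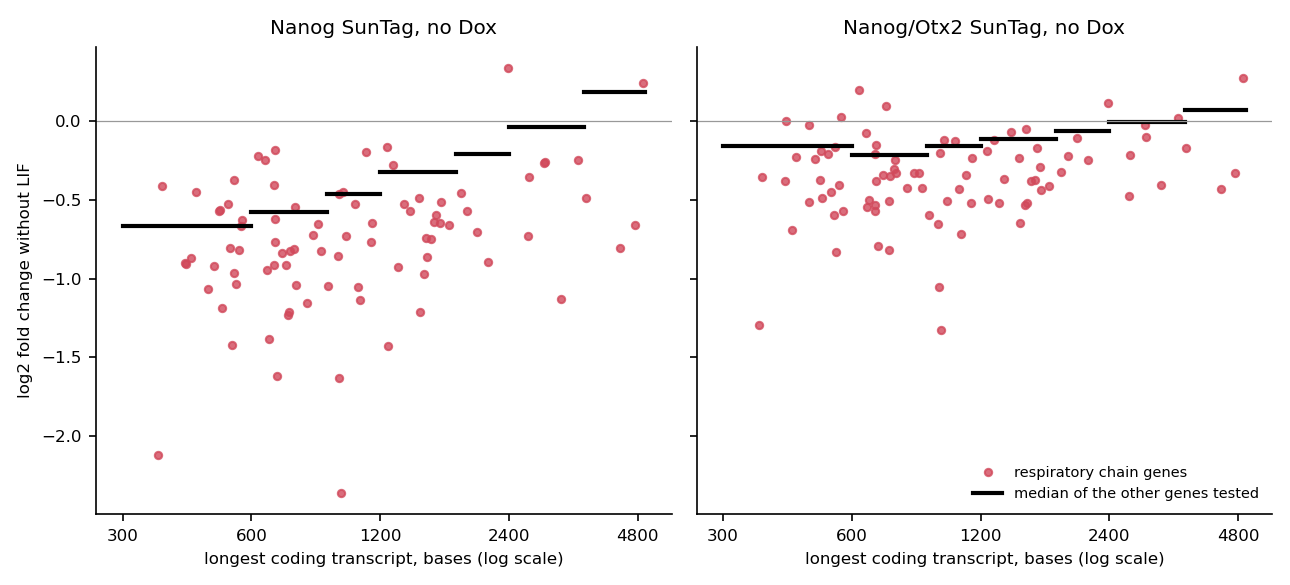
Log2 fold change on LIF withdrawal without Dox against transcript length, in both SunTag lines. Points are members, placed by the length of their longest coding transcript in bases on a log axis, and black bars are the medians of all other tested genes in each length class. In the Nanog line the bars climb from −0.66 at 300 to 600 bases to 0.18 at 3600 to 5000 bases, and in the Nanog/Otx2 line from −0.15 to 0.07.

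With the trends with GC content and length removed from each library, 27 of 87 members were called in the uninduced Nanog line (4 higher, 23 lower) in place of 55, with a median of −0.24. In the same fit 22.8% of the 14177 genes tested were higher and 22.1% lower. For the uninduced Nanog/Otx2 line 31 of 87 were called (5 higher, 26 lower) in place of 52, with a median of −0.081, against 25.6% higher and 27.3% lower of 14227 genes. With Dox, 25 were called in the Nanog line (2 higher, 23 lower, against 15.3% and 15.1% of genes) and 27 in the Nanog/Otx2 line (2 higher, 25 lower, against 20.2% and 19.6%). Sdhd, at −0.48 in the uncorrected fit of the Nanog line with Dox, then had a log2 fold change of 0.00016. Ndufs3 turned from −0.52 to 0.058 in the uninduced Nanog line under this setting. The part of transcript length in the falls was not tested beyond this. Cytosolic ribosomal protein genes, which are also short, took between 4.768% and 6.443% of all counts with LIF and between 4.033% and 4.606% without in the uninduced Nanog line, and between 6.466% and 7.969% and between 6.181% and 6.945% in the Nanog/Otx2 line. Levels of the members in Nanog/Otx2 libraries relative to 44iN and Tg2a libraries correlated with GC content (r = 0.704 over 88 members of the same libraries), so levels are not compared between those lines here.

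Markers of other cell types moved with LIF as well. The 4 primed epiblast markers summed to between 3647 and 7176 normalised counts in uninduced Nanog libraries with LIF and to between 71205 and 84585 without, and the 7 ES cell markers to between 123682 and 131960 and between 34412 and 45290. In the Nanog/Otx2 line the primed markers went from between 4555 and 12092 to between 88542 and 100878, and the ES cell markers from between 144402 and 170212 to between 63348 and 82377. In the uninduced Nanog line the 4 endoderm markers (Sox17, Gata6, Gata4 and Sox7, all called lower) summed to between 158.6 and 415.7 with LIF and between 75.72 and 96.95 without. The 4 streak and mesoderm markers (T, Mixl1, Eomes and Mesp1, 2 called higher) summed to between 88.64 and 192.8 and between 435.2 and 638.6. The 3 neural markers listed (Pax6, Neurog2 and Tubb3, 1 called lower) summed to between 985.4 and 2994 and between 729 and 972.1, with Neurog2 at 0 in every library with LIF. These lists thus moved in different directions. The 4 trophoblast markers (Cdx2, Elf5, Krt8 and Tfap2c, 1 called higher and 1 lower) summed to between 1226 and 1918 and between 689 and 775.7. The 5 fibroblast markers (Col1a1, Col1a2, Col3a1, Thy1 and Postn, 1 called higher) summed to between 144.6 and 505.6 and between 266.3 and 381.1, with Postn at 0 in every library of both groups. The part of cell state and of other cell types in the falls of the members was not tested.

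Other mitochondrial genes were counted from fixed lists, in the uninduced Nanog and Nanog/Otx2 lines in turn. Among all genes tested, 21.3% and 25.2% were called lower in these lines, and 20.2% and 24.6% higher. Of the 13 protein genes of mitochondrial DNA, 5 fell and 1 rose in the Nanog line (median −0.15) and 4 fell and 0 rose in the Nanog/Otx2 line (median −0.28). The subunits of complex IV made in the mitochondrion fell in both lines, mt-Co1 by 0.42 and 0.43, mt-Co2 by 0.63 and 0.38 and mt-Co3 by 0.91 and 0.46 on the log2 scale, while mt-Nd4l, of complex I, rose by 0.62 in the Nanog line. Of 28 assembly factors outside the rule, 12 and 11 fell and 0 rose. On the log2 scale Nubpl, which loads iron-sulphur clusters into complex I, fell by 1.48 and 0.71, Cox17, a copper chaperone of complex IV, fell by 1.00 and 0.72, and Sdhaf1, which serves Sdhb, fell by 1.14 and 0.97.

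The lists that follow are also to be set against the 21.3% and 25.2% of all genes that fell. Of 17 genes of electron carriers and coenzyme Q, 10 and 7 fell, and 0 and 1 rose. Cyct, the testis form of cytochrome c, fell by 2.66 and 1.47 on the log2 scale, while Cycs, the common form, did not pass the test in either line (−0.33 and 0.18). Etfb, which feeds electrons from fatty acid oxidation to coenzyme Q, fell by 1.69 and 1.27, and Coq9, needed to make coenzyme Q, by 1.10 and 0.89. Of 16 genes of pyruvate entry and the citrate cycle, 5 and 7 fell and 1 rose in each line, the latter being Dlst (0.40 and 0.34). Mitochondrial ribosomal protein genes fell in 33 and 32 of 74 cases, with medians of −0.44 and −0.23. Of the cytosolic ones, 29 of 81 fell in the Nanog line (median −0.48), and 9 fell and 4 rose of 80 in the Nanog/Otx2 line (median −0.08).

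**Figure D5:**
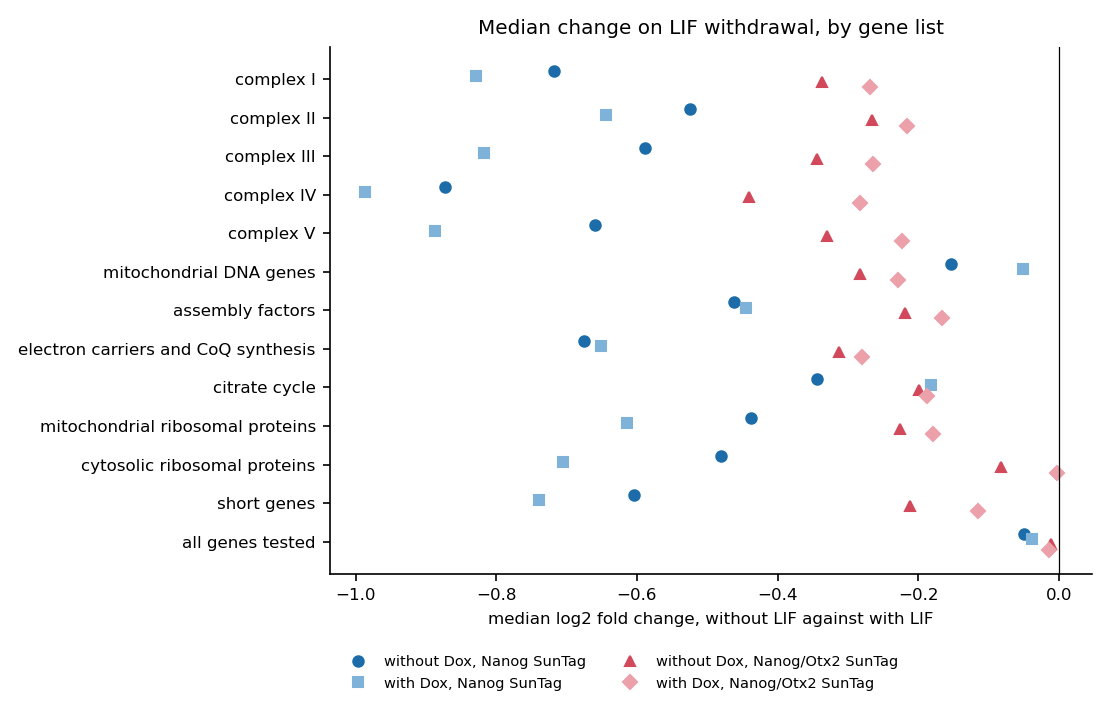
Median log2 fold change on LIF withdrawal for the members by complex and for other gene lists, in 4 comparisons (both lines, without and with Dox). The points of complexes I to V lie below 0 in all 4 comparisons, with complex IV at −0.87 and −0.44 without Dox, and the short genes lie at −0.60 and −0.21.

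Among the transcription regulators known for respiratory chain genes, Esrrb, an ERR family receptor and a known target of Nanog and of LIF signalling in ES cells, had 14784, 19406 and 21159 normalised counts with LIF and 532.5, 851.8 and 644.1 without in the uninduced Nanog line (log2 fold change −4.79). With Dox and no LIF it had 6677, 5889 and 5980, which lay between those groups. It fell by 4.89 on the log2 scale in the Nanog/Otx2 line without Dox. Hif1a, the oxygen-regulated factor, and Pprc1, a coactivator of mitochondrial genes, rose in the Nanog line (0.79 and 0.70), and Pprc1 (0.25), Gabpb1 (0.20) and Esrrg (2.03) rose and Gabpa fell by 0.54 in the Nanog/Otx2 line. Nrf1, Yy1 and Tfam did not pass the test in either line.

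The next question was whether induction of Nanog changed the members. In the Nanog line without LIF, Dox raised Nanog (log2 fold change 3.16, adjusted p = 0.000899) and 0 of 87 members were called by edgeR, where 5.14% of all genes were called in either direction. The median was 0.07 over the members and 0.04 over short genes, and 3 members had an unadjusted p-value under 0.05. DESeq2 called 0 members, against 5.62% of genes higher and 4.04% lower. Cox5a shows the sizes involved, with 1891, 1934 and 2004 normalised counts without Dox and 2806, 2528 and 2451 with it. Those values are apart, yet both sets lay below the lowest library with LIF, at 4209. With LIF, Dox also left 0 members called (0.563% of all genes, and 8 members with an unadjusted p-value under 0.05). The median was 0.12 over the members and 0.19 over short genes. DESeq2 called 0 members there, against 2.06% of genes higher and 1.7% lower. Nanog itself had an adjusted p of 0.0793 in edgeR there. An interaction of LIF and Dox was called for 0 members (edgeR, against 1.93% of all genes, 1 member with an unadjusted p-value under 0.05). DESeq2 called it for 0 members, against 3.29% of genes higher and 2.33% lower. The protein genes of mitochondrial DNA, which are not members, took 6.819% to 7.861% of counts without LIF or Dox and 9.723% to 10.22% with Dox alone. Of these genes mt-Nd3 (log2 fold change 0.83) and mt-Atp6 (0.66) were called by edgeR and the others were not. With LIF the ranges were 8.249% to 10.74% and 11.96% to 12.54%, and none was called.

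In the Nanog/Otx2 line without LIF, Cox7a1 was the 1 member raised by Dox (11.2% of all genes rose) and 0 fell (6.15% fell). It had 87.6, 63.4, 64.12 and 71.23 normalised counts without Dox and 147.2, 124.9, 100.2 and 96.67 with it. All 4 values with Dox lay above those without (log2 fold change 0.73, SE 0.21, adjusted p = 0.0255), and the adjusted p was between 0.053 and 0.080 when any of 5 libraries was left out. With the replicate block 10 members were called (7 higher, 3 lower), where 18.9% of all genes were higher and 14.5% lower. With DESeq2 3 were called (2 higher, 1 lower), against 12.1% and 9.25% of genes. With the trends with GC content and length removed 12 were called (2 higher, 10 lower), against 10.3% and 18.7% of genes. In the Nanog line Cox7a1 had 32.57, 42.66 and 41.8 without Dox and 78.13, 63.44 and 59.64 with it, also apart, and was not called. The difference between the lines in the response to Dox was called for 0 members in edgeR (0.0308% of all genes, 2 members with an unadjusted p-value under 0.05). DESeq2 also called it for 0, against 0.222% of genes higher and 0.0309% lower.

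In the Nanog/Otx2 line with LIF, Dox lowered 7 members and raised 2, against 10.0% and 12.9% of all genes. The median was −0.11 over the members and −0.14 over short genes. Cox7b, a nuclear subunit of complex IV, had 7883, 7358 and 8476 normalised counts without Dox and 5752, 7067, 5749 and 5887 with it (log2 fold change −0.35, SE 0.08, adjusted p = 0.00717). Atp5j2, subunit f of complex V, had 2534, 2131 and 2671 against 1775, 2166, 1825 and 1754 (−0.36, SE 0.11, adjusted p = 0.0272), and the groups overlapped through C1ON3-2. Uqcrq, Ndufs5, Cox6b1, Atp5b and Ndufa9 fell by 0.20 to 0.31. Ndufa8, an accessory subunit of complex I, had 1209, 1289 and 1301 without Dox and 1465, 1642, 1473 and 1388 with it (0.25, SE 0.08), and Cox4i2 rose by 0.67. Without library C1ON3-1 of the group with LIF and no Dox 1 member was called, without C1ON3-1 or C2ON3-2 of the group with Dox 2, and without C2ON3-1 of that group 3. The shares of all genes called in these fits are not given. With the replicate block 30 were called (4 higher, 26 lower), where 21.3% of all genes were higher and 19.7% lower. With DESeq2 15 were called (2 higher, 13 lower), against 14.7% and 12.2% of genes. With the trends removed 14 were called (2 higher, 12 lower), against 11% and 23.5% of genes. The interaction of LIF and Dox was called for 0 members (9.70% of all genes, 8 members with an unadjusted p-value under 0.05). It was called for 0 by DESeq2, against 6.22% of genes higher and 6.36% lower. With the block it was called for 2 members, where 11.1% of genes were higher and 10.8% lower.

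The last question was whether loss of Nanog changed the members. In 44iN cells at 24 h after Dox removal 0 of 85 members and 0% of the 14376 genes tested were called by edgeR. An unadjusted p-value under 0.05 was reached by 0 members and 1023 genes in edgeR. DESeq2 called 0 members, against 0.786% of genes higher and 0.195% lower. Even Nanog, at a log2 fold change of 4.56 with against without Dox, had an adjusted p of 0.0902 in edgeR. A large change thus did not pass edgeR's test in this comparison of 2 libraries against 2. Values here are with Dox against 24 h without it, so a member called higher was lower after Dox removal. The median was 0.13 over the members and 0.17 over short genes. Without the first library with Dox 31 of 88 members were called (27 higher, 4 lower), where 13.2% of all genes were higher and 9.41% lower. That fit held 1 library with Dox, so its spread came from the 2 libraries without Dox alone.

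After long-term culture without Nanog, against wild-type Tg2a cells, 1 of 87 members rose and 1 fell, where 3.35% and 5.26% of all genes did, and the median was 0.01. These are different lines, so that the line and the loss of Nanog cannot be told apart. Cox7b2 (ENSMUSG00000049387, chr5:71834063-71939444, minus strand) had 26.02, 15.63 and 19.98 normalised counts in Tg2a cells and 144.3 and 116.5 in long-term 44iN cells (log2 fold change 2.59, SE 0.32, adjusted p = 0.00609). Ndufc2 (ENSMUSG00000030647, chr7:104548513-104556312, plus strand), an accessory subunit of complex I, had 971.3, 1051 and 961.2 in Tg2a cells and 500.9 and 554.4 in long-term 44iN cells (−0.99, SE 0.17, adjusted p = 0.0145). Both pairs of groups were far apart, and neither call held when either of the 2 long-term libraries was left out, which left 1 library in that group. DESeq2 called 6 members (3 higher, 3 lower), where 6.33% of all genes were higher and 9.03% lower. The fit with the trends removed called 10 (4 higher, 6 lower), against 14.5% and 10.8% of genes. The fit with the library number as a replicate block called 20 (13 higher, 7 lower), against 14.7% and 17.7% of genes.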

How the data were processed

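RNA-seq was analysed for 35 libraries. The 3 libraries of Tg2a cells in 2i, the ChIP-seq and the ATAC-seq were not analysed here. The authors made stranded libraries from polyadenylated RNA, sequenced single-end reads, aligned them to mm9 with STAR and estimated expected counts per gene with RSEM. The deposited table of estimated counts is rounded to whole numbers. A table of signal deposited beside it holds these counts divided by DESeq2 size factors, called normalised counts. The labels' processing notes also name CASAVA (1.8).

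Estimated counts were compared with edgeR (4.0.16, R 4.3.3) after TMM normalisation, with standard errors from its quasi-likelihood F statistic. The 11 Nanog, 15 Nanog/Otx2, 4 44iN and 5 long-term and Tg2a libraries were fitted apart, and all 26 SunTag libraries together for differences between lines. Alternatives were DESeq2 (1.42.0), its size factors in edgeR, other filters on low counts, a replicate block, each library left out in turn, summed copies, and GC and length trends removed. Copies were sought with blastn (2.17.0). Python 3.11.15, pandas 2.3.3 and numpy 2.4.6 handled the tables. Fits were tested on simulated counts. The members and lists were chosen with earlier results of these data known. Named with values were up to 5 called members per direction and comparison with the largest log2 fold change whose higher group averaged at least 100 normalised counts, 20 core subunits, isoform families and regulators. The values of 1 member are not reported here. A few others in the text, such as Nubpl, are examples of lists. Clones are cell lines and therefore pair libraries, but the main fits held no term for clone or replicate number. The block was the clone in the Nanog line, and the clone with the number in the title in the Nanog/Otx2 line, where 1 library (C2ON3-1 with LIF and no Dox) bears the number 2 in the table's header. Between groups, deviations of same-clone libraries correlated at −0.06 to 0.41 (median 0.14) in the Nanog line. Those of different clones correlated at −0.31 to 0.01 (median −0.14) there, and at −0.51 to 0.03 (median −0.23) in the Nanog/Otx2 line. Within clones of the Nanog/Otx2 line the correlations were 0.13 to 0.55 (median 0.28) for the same number. They were −0.08 to 0.35 (median 0.16) for another number.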

Additional observations from a re-analysis of the deposited data

Results flagged for a closer look

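In 147 groups of 4 libraries of the named members, 5 held a library whose gap to the nearest other exceeded Dixon's 95% critical share of the range of the group, where chance flags about 1 in 20. Groups of 4 occur in the Nanog/Otx2 line alone. With LIF and Dox, library C1ON3-2 was high for Cox5a (6935, next 5781), Cox7b (7067, next 5887) and Ndufs5 (449.2, next 380.1), and C1ON3-1 was low for Cox7a2 (3407, next 4175). With Dox and no LIF, C2ON3-1 was low for Ndufb4 (201.7, next 233.4).

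The response to LIF withdrawal without Dox differed between the SunTag lines for 5 members by edgeR's test of the difference. The log2 fold change in the Nanog/Otx2 line minus that in the Nanog line was 1.00 for Atp5g3, 0.87 for Ndufb6, 0.70 for Atp5l, 0.69 for Ndufs4 and 0.68 for Ndufa4. The libraries of the lines bear different prefixes in the table's headers, and these cannot be told apart from the line.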

How the results depend on the processing

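Counts are of members called. On LIF withdrawal, DESeq2, its size factors, other filters, the block and summed copies gave counts within 1.5 times of those reported, with 0 members higher in the Nanog line and 1 in uninduced Nanog/Otx2 cells, apart from 58 with the replicate block in Nanog/Otx2 cells with Dox (3 higher). Removing GC and length trends and summing copies were chosen after seeing the data, as was subtracting short genes. With GC and length trends removed the counts on LIF withdrawal were 27 (without Dox) and 25 (with Dox) in the Nanog line and 31 and 27 in the Nanog/Otx2 line, and the medians were −0.24, −0.26, −0.081 and −0.10. Ndufs3 then had 0.058 (Nanog, without Dox) and Sdhd 0.00016 (Nanog, with Dox). Medians after subtracting that of short genes were −0.13, −0.12, −0.14 and −0.14. For the difference between lines they were 0.14 with the trends removed and 0.00 (0.0047) against short genes, and the counts were 9 by DESeq2, 1 without a filter, 13 with the replicate block and 0 with the trends removed.

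For Dox in Nanog cells without LIF the count was 1 with the trends removed and 3 from the libraries without LIF alone. For Dox in Nanog/Otx2 cells without LIF it was 3 by DESeq2, 2 with its size factors, 10 with the replicate block, 12 with the trends removed and 2 with copies summed. With LIF it was 15 by DESeq2, 1 without a filter, 30 with the block and 14 with the trends removed, and for the interaction 2 with the block, 1 with the trends removed and 1 with copies summed. In 44iN cells it was 1 without a filter and 10 with the replicate number as a block, and for long-term cells 6 by DESeq2, 4 without a filter, 20 with the block and 10 with the trends removed. With the numbers of the headers in the replicate block, chosen after seeing the data, the counts in Nanog/Otx2 cells were 58 on LIF withdrawal with Dox, 11 and 28 for Dox without and with LIF, and 2 for the interaction. The numbers of 44iN and of long-term and Tg2a libraries pair nothing by the labels. The share of all genes called moved as well. With the block, Dox in Nanog/Otx2 cells had 18.9% of genes higher and 14.5% lower without LIF, and 21.3% and 19.7% with LIF. In 44iN cells the block gave 8.9% and 4.4%, and in long-term cells 14.7% and 17.7%. The causes of these moves were not tested. Of the alternatives for single members, 1512 kept direction and side of the threshold, 220 lost the call and 2 reversed.

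Leaving out 1 library at a time gave 39 to 74 and 17 to 70 members on LIF withdrawal in the Nanog line (without and with Dox; medians −0.81 to −0.66 and −1.01 to −0.62), and 42 to 53 and 30 to 41 in the Nanog/Otx2 line. For the difference between lines it gave 1 to 23 (medians 0.29 to 0.49), and for the SunTag fits the shares of all genes are not given. For Dox it gave 0 to 1 in the Nanog line with and without LIF, 0 to 3 without LIF and 1 to 12 with LIF in the Nanog/Otx2 line, where the interaction gave 0 to 2. In 44iN cells it gave 0 to 31 (31 without the first library with Dox), and in long-term cells 0 to 6 (0 without either long-term library and 6 without the third Tg2a library).

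Depth of 6107512 to 92244655 counts per library limits the low isoforms most, such as Cox7b2, Cox8c and Cox4i2. Standard errors cover the spread of these libraries only.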
